A study of Mus musculus with 10 samples.

Results

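The S100 genes of mouse melanoma cells were described across 4 groups of sorted cells. The members are the 10 gene names S100b, S100a1, S100a3, S100a4, S100a6, S100a8, S100a9, S100a10, S100a14 and S100a16, taken by name from a transcript table that holds 34162 gene names. RNA was sequenced from 3 metastatic c-Myc-high, 3 metastatic c-Myc-low, 2 primary c-Myc-high and 2 primary c-Myc-low libraries. All came from mice labelled C57BL/6:SV129. Metastatic cells were taken from lymph nodes and primary cells from skin, and cells of fresh tumours were sorted as GFP-positive (c-Myc-high) or GFP-negative (c-Myc-low). The labels name no melanoma driver allele, no age and no marker in the sort other than GFP, and they leave unsaid if the replicates are different animals or if a tumour gave both classes, so the spread behind each p-value may be technical.

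S100 proteins are small calcium-binding proteins of the EF-hand type that mostly act as dimers: on binding calcium they expose a surface that docks to target proteins inside the cell, and several are also released and act on cell surface receptors. S100B is in clinical use as a tissue and serum marker of human melanoma, while the complex of S100A8 and S100A9, called calprotectin, fills the cytosol of neutrophils. Other members belong to epithelia, among them the epidermis that surrounds a skin tumour.

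In the GENCODE annotation of GRCm38, 9 members lie on chromosome 3 and S100b lies alone on chromosome 10, from 76253853 to 76261159 on the plus strand. Of the 9, 8 fall within 184.7 kb, from the start of S100a1 (90511034 to 90514392, minus strand) to the end of S100a9 (90692632 to 90695721, minus strand). S100a10 lies 2859 kb further on, from 93555080 to 93564643. S100a14 (90526856 to 90528837) and S100a16 (90537254 to 90543151) are neighbours on the plus strand, and S100a8 (90668978 to 90670035, plus strand) lies 22.6 kb from S100a9. All are protein-coding genes. S100b overlaps Dip2a on the opposite strand over 1731 bases, where reads of the 2 genes cannot be told apart without strand. S100a4 (90603771 to 90606045) overlaps the predicted gene Gm42674 on the same strand over 2115 bases, so the split of reads there is uncertain.

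The 250 bases before the transcription start are shown for the calprotectin pair, whose transcripts were high in the same libraries, and for S100b and S100a1, the members that were higher in metastatic cells. They come from RefSeq (GRCm38.p6), read 5′ to 3′ on the gene's strand, and cover chr3:90668821-90669070 (plus) for S100a8, chr3:90695722-90695971 (minus) for S100a9, chr10:76253586-76253835 (plus) for S100b and chr3:90514331-90514580 (minus) for S100a1. Capitals mark matches to TATAAA, the TATA box, or to TTNNGNAA, a pattern like the sites of C/EBP factors, on either strand.
S100a8: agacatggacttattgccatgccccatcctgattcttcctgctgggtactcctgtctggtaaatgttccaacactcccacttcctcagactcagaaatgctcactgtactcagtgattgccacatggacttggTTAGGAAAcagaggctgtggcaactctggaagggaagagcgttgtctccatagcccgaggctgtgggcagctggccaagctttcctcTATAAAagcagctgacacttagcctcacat
S100a9: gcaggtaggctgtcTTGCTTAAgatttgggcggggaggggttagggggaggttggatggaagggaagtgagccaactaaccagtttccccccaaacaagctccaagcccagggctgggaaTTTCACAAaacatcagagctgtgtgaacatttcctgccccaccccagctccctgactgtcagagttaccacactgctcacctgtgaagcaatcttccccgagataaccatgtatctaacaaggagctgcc
S100b: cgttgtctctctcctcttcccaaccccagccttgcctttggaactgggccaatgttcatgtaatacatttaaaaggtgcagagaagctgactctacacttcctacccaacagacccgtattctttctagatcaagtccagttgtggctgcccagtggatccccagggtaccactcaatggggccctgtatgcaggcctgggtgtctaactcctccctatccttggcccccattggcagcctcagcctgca
S100a1: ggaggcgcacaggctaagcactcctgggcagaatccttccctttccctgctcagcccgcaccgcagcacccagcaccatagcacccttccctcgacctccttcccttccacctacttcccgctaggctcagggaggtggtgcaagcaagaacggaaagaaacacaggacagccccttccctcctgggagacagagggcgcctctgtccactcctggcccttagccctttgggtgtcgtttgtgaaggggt
S100a8 held a TATA box 30 bases and a C/EBP-type match 117 bases before its RefSeq start. S100a9 held C/EBP-type matches 236 and 130 bases before its RefSeq start. GENCODE places some starts differently: it starts S100a8 at 90668978 and S100a1 at 90514392, inside their windows. The TATA box of S100a8 thus lies within the gene as GENCODE draws it. Among 32851 promoters of the same length, 12.4% held TATAAA and 36.8% held TTNNGNAA. The windows of S100b and S100a1 held neither of these, nor CACGTG (an E-box, in 6.0% of promoters), TGANTCA (AP-1, in 6.7%) or ACAAAG or ACAATG (SOX-type, in 25.2%). A match here is a run of letters and was not tested as a site.

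Libraries held between 1603012 and 6844328 estimated counts, and 16805 genes passed the filter on low counts. Levels below are counts per 1000000 (CPM) after TMM scaling, with all transcripts of a gene summed. Marker lists differed between sites. Summed over 15 keratinocyte markers, levels were 31.5 to 358 CPM in the 6 metastatic and 24150 to 91490 CPM in the 4 primary libraries, and all 15 markers were called lower in metastatic cells. Summed over 13 melanocyte markers they were 2922 to 20800 CPM in metastatic and 602 to 2869 CPM in primary libraries, with 4 of 13 called higher, and over 11 pan-leukocyte markers 264 to 5265 CPM in metastatic and 9.99 to 37.9 CPM in primary libraries, with 10 of 11 called higher. Salivary gland markers reached 64930 and 8126 CPM in metastatic c-Myc-high replicates 1 and 3, against at most 616 CPM elsewhere. Myc transcripts did not separate the sorted classes, at 104 to 997 CPM in the 5 c-Myc-high and 101 to 318 CPM in the 5 c-Myc-low libraries. In such bulk samples, fewer cells of a type and less RNA per cell cannot be told apart.

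Between sites, S100b and S100a1 were higher and S100a14 and S100a16 lower in metastatic than in primary cells. Of the 10 members, 9 passed the filter, and 4 of these 9 were called (2 higher, 2 lower) in edgeR's quasi-likelihood test of the mean of both c-Myc classes, at a Benjamini-Hochberg adjusted p under 0.05. Of all genes tested, 13.8% were called, 8.13% as higher and 5.64% as lower. The members' median log2 fold change was 0.90, against 0.28 over all genes tested. The 6 metastatic libraries lay entirely above the 4 primary ones for S100a1 and entirely below them for S100a14 and S100a16, as did 5.87% (above) and 5.13% (below) of all genes. The other 7 members overlapped between sites.

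**Figure D1:**
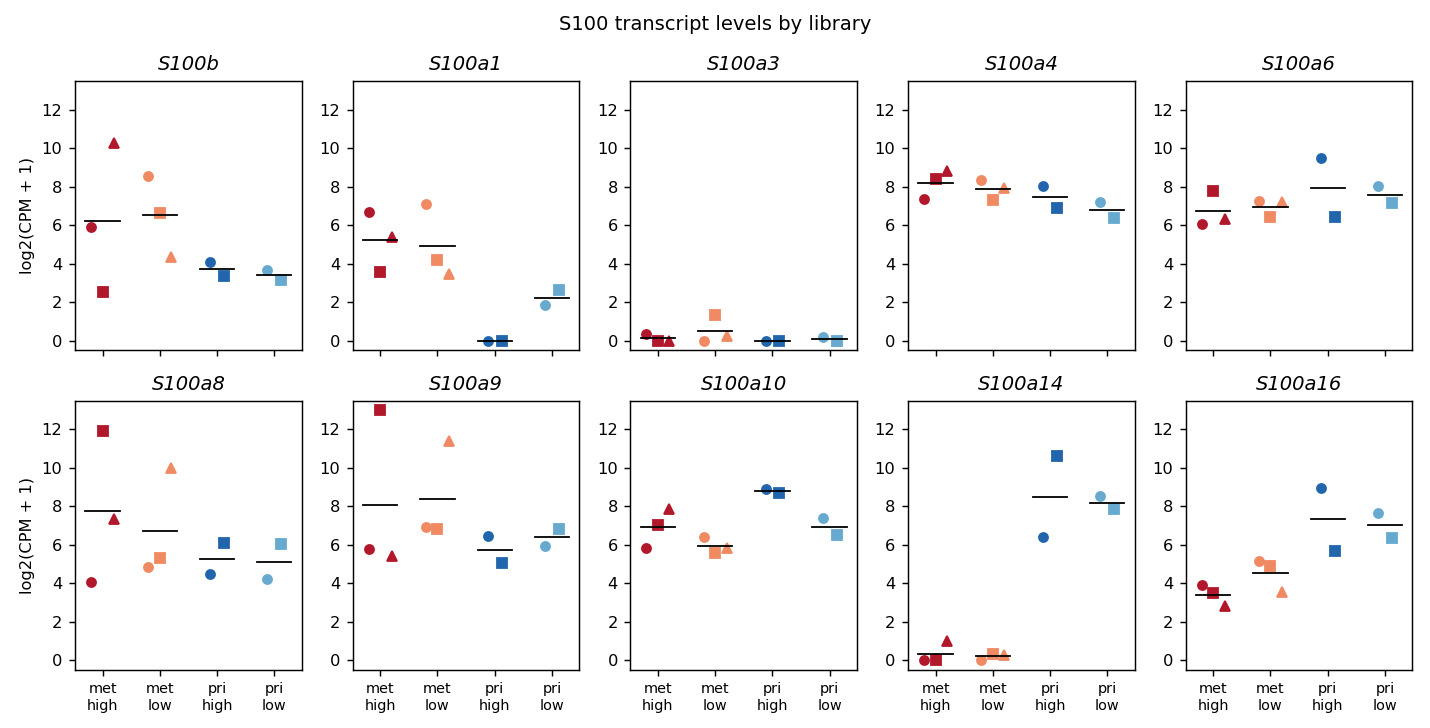
Level of each S100 gene as log2(CPM + 1) in each of the 10 libraries. Columns are metastatic (met) and primary (pri) cells of the c-Myc-high and c-Myc-low classes, circles, squares and triangles are replicates 1, 2 and 3, and bars are group means on this scale. S100a14 and S100a16 sit lower in all 6 metastatic libraries, S100a1 sits higher, and S100a8 and S100a9 are highest in metastatic c-Myc-high replicate 2 and metastatic c-Myc-low replicate 3.

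S100b, whose protein binds p53 and other partners in cells of the neural crest and glia, had 58.3, 4.73 and 1232 CPM in metastatic c-Myc-high replicates 1, 2 and 3. In metastatic c-Myc-low replicates 1, 2 and 3 it had 379, 98.7 and 19.5 CPM. In primary cells it had 15.8 and 9.33 CPM in c-Myc-high and 11.6 and 7.80 CPM in c-Myc-low replicates 1 and 2. Thus 5 of 6 metastatic libraries lay above every primary one, and metastatic c-Myc-high replicate 2 lay below all 4. The log2 fold change was 4.58 (SE 1.38, adjusted p = 0.0466), and that of the overlapping gene Dip2a was -0.63 (adjusted p = 0.53). The call was lost when any of the 4 primary libraries was left out (adjusted p = 0.134 to 0.187), and also on leaving out replicate 3 of the metastatic c-Myc-high group (2.69, adjusted p = 0.0831) or replicate 1 (3.79, adjusted p = 0.096) or 2 (4.66, adjusted p = 0.0775) of the metastatic c-Myc-low group. Without metastatic c-Myc-high replicates 1 and 3, the libraries richest in salivary gland transcripts, the value was 1.27 (adjusted p = 0.388).

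S100a1, a regulator of calcium handling in muscle, had 102, 10.9 and 40.4 CPM in metastatic c-Myc-high and 138, 17.3 and 9.92 CPM in metastatic c-Myc-low replicates 1, 2 and 3. It had no count in either primary c-Myc-high library, where 3 counts would stand for 0.72 and 2.8 CPM in replicates 1 and 2, and 2.58 and 5.19 CPM in primary c-Myc-low replicates 1 and 2. The lowest metastatic library was above the highest primary one. The log2 fold change of 7.40 (SE 1.47, adjusted p = 0.00903) was fitted with the primary c-Myc-high group at 0 and is no bound. Counted within classes, the level was at least 84.3-fold higher in metastatic than in primary c-Myc-high cells, against a floor of 3 counts over the primary group. In c-Myc-low cells it was 18.2-fold higher (exact 95% binomial interval 13.2 to 25.7, counting error only). Of the 1271 metastatic counts there, 1082 came from metastatic c-Myc-low replicate 1. Without that library the edgeR log2 fold change in c-Myc-low cells was 1.73 (adjusted p = 0.809), against 3.84. Leaving out replicate 1 of the primary c-Myc-high (7.37, adjusted p = 0.0572) or of the primary c-Myc-low group (7.12, adjusted p = 0.0593) ended the call. Limma-voom did not call S100a1 (5.18, adjusted p = 0.1). Its neighbour S100a13, which starts 42 bases away on the opposite strand, was not called (-0.36, SE 0.77, adjusted p = 0.813).

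Summed markers of pigment cells were also higher in metastatic libraries. In metastatic c-Myc-high replicate 2, S100b was below every primary library, at 4.73 CPM, while these markers were above every one, at 2922 CPM. Per 1000 CPM of summed melanocyte markers, S100b stood at 13, 1.62 and 77.1 CPM in metastatic c-Myc-high and 18.2, 11 and 2.81 CPM in metastatic c-Myc-low replicates 1, 2 and 3, and at 5.52, 15.5, 16.3 and 6.02 CPM in the primary ones. On this scale the sites overlapped for S100b, and 2 of 6 metastatic libraries lay above all primary ones. Metastatic c-Myc-high replicate 2 and metastatic c-Myc-low replicate 3 lay below all primary ones. For S100a1 the range was 1.43 to 22.7 CPM per 1000 in metastatic and 0 to 4 CPM per 1000 in primary libraries, which also overlapped. Schwann cell markers, which include glial genes that melanocytes share, summed to 125 to 1528 CPM in metastatic and 270 to 620 CPM in primary libraries, and 2 of 7 were called higher. The part of either list in the S100b and S100a1 results was not tested.

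**Figure D2:**
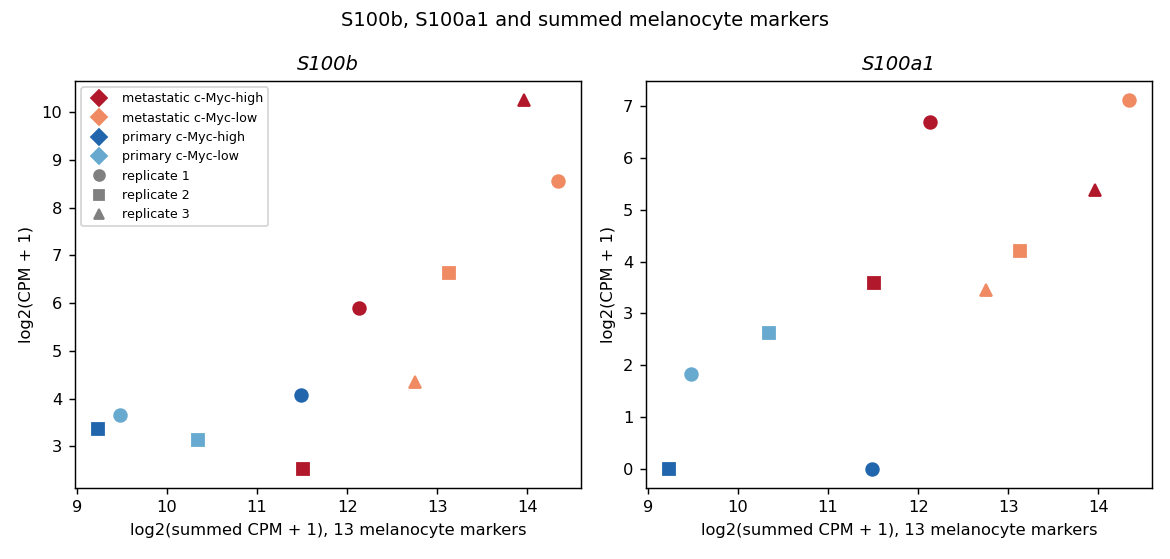
S100b (left) and S100a1 (right) as log2(CPM + 1) against the summed level of 13 melanocyte markers as log2(summed CPM + 1), 1 point per library, with colours for the 4 groups and shapes for replicates. The 4 primary libraries lie to the left of the 6 metastatic ones, and metastatic c-Myc-high replicate 3 has the highest S100b level, 1232 CPM, at 15980 CPM of summed markers.

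S100a14, a gene of epithelial cells, was near 0 in metastatic cells. It had 0, 0 and 1.02 CPM in metastatic c-Myc-high and 0, 0.257 and 0.184 CPM in metastatic c-Myc-low replicates 1, 2 and 3, from 5 counts in all. In primary cells it had 82.9 and 1563 CPM in c-Myc-high and 369 and 229 CPM in c-Myc-low replicates 1 and 2. No metastatic library came near a primary one. The log2 fold change was -11.23 (SE 1.21, adjusted p = 0.000172), and it was called in all 22 alternatives tried for this comparison. By counts, the level in metastatic cells was lower by a ratio of 2040 (exact 95% binomial interval 564 to 16900) in the c-Myc-high and 2300 (786 to 11200) in the c-Myc-low class. The 2 transcripts were used unevenly: ENSMUST00000167598 held all 345.4 counts of primary c-Myc-high replicate 1, and ENSMUST00000164481 held 1653.7 of the counts in primary c-Myc-high replicate 2 against 21.3 on the other.

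S100a16, another member found in epithelia, had 14.1, 10.1 and 6.06 CPM in metastatic c-Myc-high and 35.0, 29.0 and 10.6 CPM in metastatic c-Myc-low replicates 1, 2 and 3. It had 494 and 50.2 CPM in primary c-Myc-high and 199 and 81.3 CPM in primary c-Myc-low replicates 1 and 2, with 2 identical rows added. Unlike S100a14 it was detected in every metastatic library, and it fell by 3.62 on the log2 scale (SE 0.68, adjusted p = 0.00581). Primary c-Myc-high replicate 1 was the highest of all, and without it the value was -2.55 (adjusted p = 0.0189). On log2(RPKM + 1) values, which can carry differences in depth between libraries, limma-trend gave -2.36 (adjusted p = 0.142).

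Both genes were lower in metastatic cells, as were keratinocyte markers, at 31.5 to 358 CPM in metastatic and 24150 to 91490 CPM in primary libraries. The highest sum, 91490 CPM, was that of primary c-Myc-high replicate 2, and Sfn alone held 51790 CPM of it. Among primary libraries this one had the lowest S100a16, 50.2 CPM, and the highest S100a14, 1563 CPM. The part of the markers in the result was not tested. Per 1000 CPM of the summed markers, S100a14 stood at 0 to 6.13 CPM in metastatic and 1.44 to 17.1 CPM in primary libraries, and S100a16 at 17.0 to 1110 CPM in metastatic and 0.549 to 8.57 CPM in primary libraries. The sites overlapped on this scale for S100a14, and the ratio of S100a16 was higher in all 6 metastatic libraries. That ratio divides by markers at only 31.5 to 358 CPM there. In CPM S100a16 was itself lower in metastatic cells, but by less than the summed markers. The ratios of S100a14 in metastatic libraries rest on 5 counts in all. Across the 10 libraries log2(CPM + 1) of S100a14 and S100a16 correlated at r = 0.716 (Spearman 0.607), a description over libraries that share the 2 sites.

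**Figure D3:**
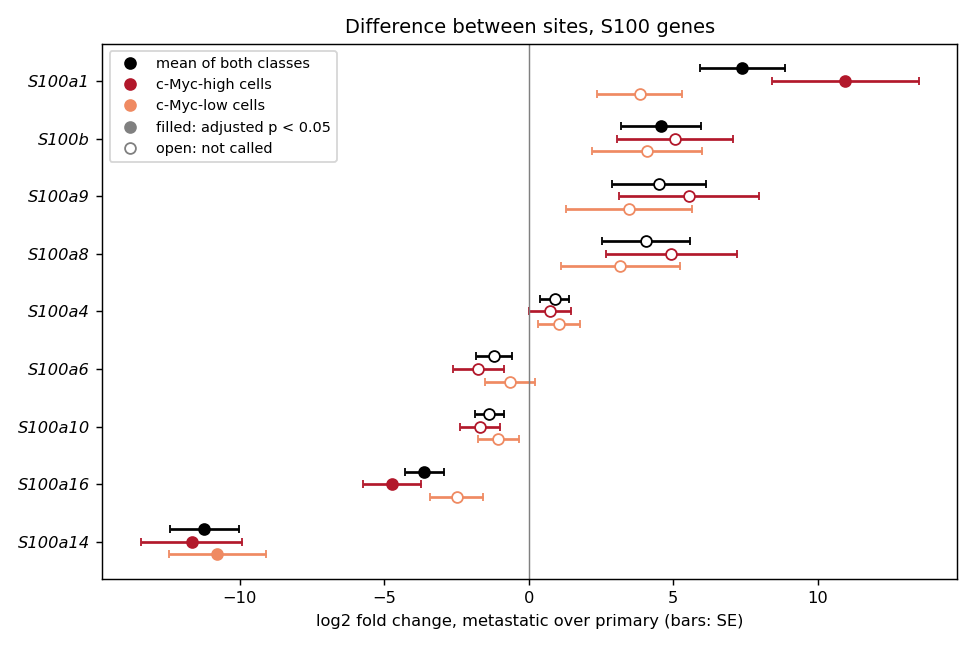
Log2 fold change of metastatic over primary cells with its SE for the 9 members tested, for the mean of both c-Myc classes (black) and in the c-Myc-high (dark red) and c-Myc-low (orange) cells. Filled points passed an adjusted p of 0.05: 4 members in the mean, 3 in c-Myc-high and 1 in c-Myc-low cells, with S100a14 passing in each.

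S100a8 and S100a9, the calprotectin subunits, were very high in the same 2 metastatic libraries and overlapped between sites in the rest. S100a8 had 15.8, 3826 and 160 CPM in metastatic c-Myc-high and 27.2, 38.6 and 1034 CPM in metastatic c-Myc-low replicates 1, 2 and 3. In primary cells it had 21.4 and 66.2 CPM in c-Myc-high and 17.3 and 64.3 CPM in c-Myc-low replicates 1 and 2. The values of 3826 and 1034 CPM stood apart, and of the other 4 metastatic libraries only metastatic c-Myc-high replicate 3 exceeded the primary ones.

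S100a9 had 54.1, 8260 and 41.1 CPM in metastatic c-Myc-high and 118, 112 and 2665 CPM in metastatic c-Myc-low replicates 1, 2 and 3. It had 86.4 and 31.7 CPM in primary c-Myc-high and 61.1 and 113 CPM in primary c-Myc-low replicates 1 and 2. These CPM add 2 identical rows of S100a9, each of which may carry the gene's full count. With identical rows taken once, both genes together made up 1% and 0.299% of the counts of the 2 high libraries and at most 0.0146% of any other.

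The site difference was not called for either gene, at 4.05 for S100a8 (SE 1.53, adjusted p = 0.0993) and 4.51 for S100a9 (SE 1.63, adjusted p = 0.086). Without the 2 high libraries the values were 0.26 (adjusted p = 0.897) and -0.05 (adjusted p = 0.98). DESeq2 called S100a8 (3.91, adjusted p = 0.00693) and gave S100a9 no adjusted p. Without the 2 libraries richest in salivary gland transcripts S100a9 passed (5.23, adjusted p = 0.0284) and S100a8 gave 4.73 (adjusted p = 0.0501). Within the c-Myc classes the sign rested on the same libraries: in c-Myc-low cells S100a8 gave -0.3 without metastatic c-Myc-low replicate 3, and in c-Myc-high cells S100a9 gave -0.4 without metastatic c-Myc-high replicate 2.

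Summed over 13 neutrophil markers that include neither gene, levels were 14.1, 2284 and 153 CPM in metastatic c-Myc-high and 65.3, 102 and 970 CPM in metastatic c-Myc-low replicates 1, 2 and 3. They were 36.7, 96.4, 98.8 and 71.6 CPM in the primary libraries. The 2 libraries high in S100a8 and S100a9 were thus also the highest in neutrophil markers. Of the 12 markers tested, 7 were called higher in metastatic cells. The granule protein gene Ngp led both high libraries, at 1136 and 419 CPM, whereas the primary sums came mostly from Cxcr2, a chemokine receptor, at 30.7 to 93.1 CPM. Ly6g, which defines mouse neutrophils, stayed at or under 1.5 CPM in every library. Per 1000 CPM of these markers S100a8 stood at 1680 and 1070 CPM in the 2 high libraries and at 176 to 1120 CPM in the others. The 2 libraries were also the highest for every other leukocyte list summed. Macrophage and monocyte markers stood at 944 and 525 CPM there, pan-leukocyte markers at 5265 and 3437 CPM, and B cell markers at 2476 and 1862 CPM. T cell markers stood at 658 and 454 CPM, and dendritic and Langerhans cell markers at 75.9 and 41.8 CPM. The 2 libraries were left out after their values were seen, and they are those with the highest S100a8 and S100a9, so the lower site differences without them follow from that choice. The part of any of these cells in the result was not tested.

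**Figure D4:**
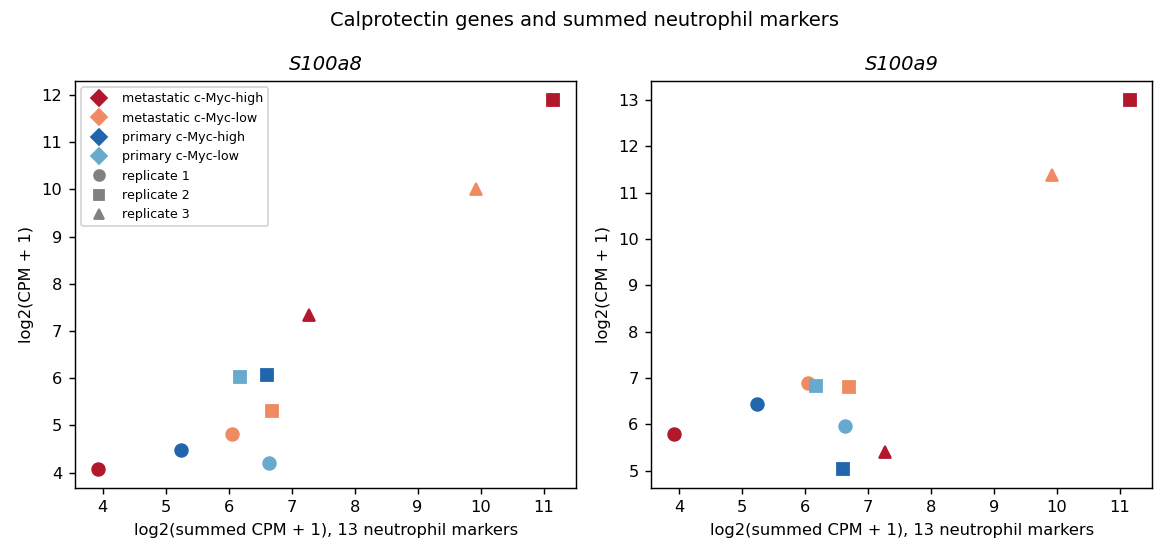
S100a8 (left) and S100a9 (right) as log2(CPM + 1) against the summed level of 13 neutrophil markers as log2(summed CPM + 1), 1 point per library, with colours for the 4 groups and shapes for replicates. Metastatic c-Myc-high replicate 2 (2284 CPM of summed markers) and metastatic c-Myc-low replicate 3 (970 CPM) lie apart at the upper right of both panels.

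The members expressed in many cell types gave no call between sites. S100a4, which binds non-muscle myosin and is known as metastasin, had 163, 338 and 452 CPM in metastatic c-Myc-high and 328, 156 and 243 CPM in metastatic c-Myc-low replicates 1, 2 and 3. It had 263 and 117 CPM in primary c-Myc-high and 149 and 82.9 CPM in primary c-Myc-low replicates 1 and 2, with 2 identical rows added. The sites overlapped, and the log2 fold change was 0.90 (SE 0.51, adjusted p = 0.266), with a range of 0.52 to 1.26 and no call in 22 alternatives. Its range over all 10 libraries, 82.9 to 452 CPM, was the narrowest in fold among the members.

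S100a6, also called calcyclin, had 65.9 to 219 CPM (median 117) in the 6 metastatic and 725, 84.5, 260 and 142 CPM in the 4 primary libraries. Its log2 fold change of -1.19 (SE 0.62, adjusted p = 0.219) was -0.22 without primary c-Myc-high replicate 1, the library at 725 CPM. S100a10, whose protein pairs with annexin A2 and has lost the binding of calcium, had 55.7, 128 and 231 CPM in metastatic c-Myc-high and 82.4, 46.1 and 56.4 CPM in metastatic c-Myc-low replicates 1, 2 and 3. It had 474 and 408 CPM in primary c-Myc-high and 165 and 90.5 CPM in primary c-Myc-low replicates 1 and 2. Within each c-Myc class the means were lower in metastatic cells, but the difference did not pass (-1.36, SE 0.50, adjusted p = 0.0874). It passed without metastatic c-Myc-high replicate 3 (-1.66, adjusted p = 0.0349), with DESeq2 (-1.39, adjusted p = 0.0363) and with limma-voom (-1.70, adjusted p = 0.0282). S100a3, a gene of the hair cuticle, had 14.8 counts over all libraries and at most 1.52 CPM, and was not tested.

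Within c-Myc-high cells, 3 of 9 members were called between sites, against 3.97% of all genes (1.65% higher, 2.31% lower). S100a1 rose (10.96, SE 2.54, adjusted p = 0.0419, a fitted value against 0 counts), while S100a14 (-11.67, SE 1.75, adjusted p = 0.00531) and S100a16 (-4.74, SE 1, adjusted p = 0.0272) fell. The S100a1 call ended when any primary library, replicate 1 of the metastatic c-Myc-high group or replicate 2 of the metastatic c-Myc-low group was left out (adjusted p = 0.0618 to 0.174). S100a16 was no longer called when primary c-Myc-high replicate 1 was left out (-2.52, adjusted p = 0.13) or on leaving out replicate 1 or 2 of the metastatic c-Myc-high group (adjusted p = 0.0656 and 0.0607). Within c-Myc-low cells only S100a14 was called (-10.78, SE 1.67, adjusted p = 0.00561), 1 of 9 members against 2.11% of all genes (0.375% higher, 1.74% lower). There S100b gave 4.09 (SE 1.90, adjusted p = 0.338), S100a1 3.84 (SE 1.46, adjusted p = 0.232) and S100a16 -2.49 (SE 0.92, adjusted p = 0.209). With the highest transcript row per gene S100a14 was not called in c-Myc-high (-11.47, adjusted p = 0.0541) or c-Myc-low cells (-10.33, adjusted p = 0.0868). Limma-voom did not call it in c-Myc-high cells (-9.67, adjusted p = 0.052). In c-Myc-low cells it also missed without the 2 libraries richest in neutrophil transcripts (-11, adjusted p = 0.0507).

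The site effect itself was not called as different between the c-Myc classes for any member. With edgeR 0 of 9 members and 0 genes (0%) passed this interaction, and 1 member and 1150 genes had an unadjusted p under 0.05. That member was S100a1, whose site effect was larger in c-Myc-high cells by 7.11 (SE 2.95, adjusted p = 0.725). This is a fitted value that rests on 0 counts in primary c-Myc-high cells. DESeq2 called 0 members and 85 genes. For S100a16 the difference was -2.25 (SE 1.33, adjusted p = 0.769).

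Between the c-Myc classes, high over low, no member was called with edgeR, as a mean of both sites or within either site, where 0 of 16805 genes (0%) passed. In the mean of both sites 2 of 9 members and 2160 genes had an unadjusted p under 0.05. S100a10 stood at 1.48 (SE 0.51, adjusted p = 0.307). DESeq2, which called 511 genes there, called it at 1.66 (adjusted p = 0.0491) and no other member. Both primary c-Myc-high libraries, at 474 and 408 CPM, were above both primary c-Myc-low libraries, at 165 and 90.5 CPM, while the metastatic classes overlapped. S100a1 gave -3.67 (SE 1.47, adjusted p = 0.347), with 0 counts in primary c-Myc-high cells. In metastatic cells 0 members and 807 genes, and in primary cells 2 members and 1953 genes, had an unadjusted p under 0.05. DESeq2 called 0 members within either site. S100b gave 1.38 (SE 1.43, adjusted p = 1) in metastatic and 0.39 (SE 1.76, adjusted p = 0.965) in primary cells.

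Levels of different members were set side by side per transcript length, as the deposited RPKM with identical rows taken once. These RPKM can carry differences in depth between libraries, so ranges over libraries can hold these too. In the 6 metastatic libraries the medians ran from S100a4 (44.2 RPKM, 25.0 to 105), S100a6 (35.2, 8.84 to 69.2), S100a9 (31.6, 3.20 to 1800), S100a8 (29.5, 5.79 to 2210) and S100a10 (23.8, 12.4 to 42.6) to S100b (11.6, 0.727 to 79.5), S100a1 (6.64, 3.18 to 72.6) and S100a16 (1.97, 0.439 to 12.6). S100a3 and S100a14 had medians under 0.03 RPKM. In the 4 primary libraries S100a6 (64.0 RPKM, 6.35 to 223), S100a14 (60.7, 16.7 to 107) and S100a10 (54.0, 17.2 to 153) led, and S100a16 (30.7, 2.42 to 97.2) and S100a4 (27.6, 6.33 to 57.9) followed. S100a9 (15.2, 1.64 to 18.3), S100a8 (12.3, 9.10 to 20.8), S100b (1.45, 0.34 to 2.37) and S100a1 (0.565, 0 to 1.24) came next, and S100a3 was last. S100a14 was thus second in primary cells and last in metastatic ones. Neighbours in either order overlapped in range except S100a8 and S100b in the primary libraries, and the order was not tested. S100a9 stood at 0.812 and 0.97 times the RPKM of S100a8 in the 2 libraries where both were high, and at 0.0964 to 1.63 times in the others.

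Further S100 genes and their partners were described from lists of the family. Between sites, 8.13% of all genes tested were called higher and 5.64% lower, with a median log2 fold change of 0.28. Of 6 other S100 genes, 2 passed the filter, and S100a11, a keratinocyte and broadly expressed member, fell by 2.60 on the log2 scale (SE 0.60, adjusted p = 0.0151). It averaged 48.8 ± 47.1 CPM in metastatic (SD, n = 6) and 353 ± 310 CPM in primary libraries (SD, n = 4). Its call ended without primary c-Myc-low replicate 1 or 2 (adjusted p = 0.0542 and 0.0588). The fused-type genes join an S100 domain to long repeats and build the cornified epidermis. Of 7 such genes 5 were tested and 5 fell: Flg, Flg2, Hrnr, Rptn and Tchh, with a list median of -9.47, or -8.73 with Rptn, which had no count in metastatic cells, set to its bound of 3 counts over these libraries. Flg, which encodes filaggrin, averaged 0.0852 ± 0.209 CPM in metastatic (SD, n = 6) and 199 ± 278 CPM in primary libraries (SD, n = 4). On leaving out replicate 2 of the primary c-Myc-high group Rptn gave -4.01 (adjusted p = 1), and on leaving out replicate 1 of the primary c-Myc-low group -8.95 (adjusted p = 0.061). Tchh, which encodes trichohyalin of hair follicles, lost its call on leaving out replicate 2 of the primary c-Myc-high group (-3.08, adjusted p = 0.171), either primary c-Myc-low library or metastatic c-Myc-low replicate 1 or 3 (adjusted p = 0.0598 to 0.0926). The keratinocyte marker sums given above were also lower in metastatic cells, and the part of these markers in the result was not tested.

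Of 10 genes for protein partners inside the cell, 1 was called higher and 2 lower, with a list median of -0.07. Over all genes tested, 8.13% were called higher and 5.64% lower, with a median of 0.28. Anxa2, which pairs with S100a10, fell by 1.74 on the log2 scale (SE 0.46, adjusted p = 0.0288), at 169 ± 48.6 CPM in metastatic (SD, n = 6) and 558 ± 205 CPM in primary libraries (SD, n = 4). The call of Anxa2 held in 10 of 22 alternatives and ended on leaving out replicate 1 of the primary c-Myc-high group, either primary c-Myc-low library, replicate 1 of the metastatic c-Myc-high group or replicate 2 or 3 of the metastatic c-Myc-low group (adjusted p = 0.0558 to 0.123). Ahnak, a giant scaffold bound by that pair, fell by 2.44 (SE 0.57, adjusted p = 0.0154), a call that ended without primary c-Myc-low replicate 1 (adjusted p = 0.0927) or metastatic c-Myc-low replicate 2 (adjusted p = 0.0553). Anxa6, an annexin that binds S100a1 and S100b, rose by 2.79 (SE 0.56, adjusted p = 0.00819), at 159 ± 66.3 CPM in metastatic (SD, n = 6) and 27.5 ± 18.5 CPM in primary libraries (SD, n = 4). Without primary c-Myc-low replicate 1 its adjusted p was 0.082. Myh9, the myosin bound by S100a4, gave 0.02 (SE 0.44, adjusted p = 0.992). The keratinocyte markers, with 15 of 15 called, were lower in metastatic cells like Anxa2 and Ahnak, and the part of these markers in the results was not tested.

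Of 6 receptor genes, 1 was called, with a list median of 1.51. Of all genes tested, 13.8% were called, 8.13% as higher, with a median of 0.28. All metastatic libraries lay above all primary ones for 5.87% of them. Tlr4, a receptor for released calprotectin, rose by 3.30 (SE 0.75, adjusted p = 0.0139), at 16.5 to 42.4 CPM in metastatic and 0.00616 to 9.13 CPM in primary libraries. Every metastatic library lay above every primary one, and the call ended without primary c-Myc-low replicate 1 or 2 (adjusted p = 0.105 and 0.0885). The pan-leukocyte markers were also higher in metastatic cells, at 264 to 5265 CPM against 9.99 to 37.9 CPM in primary libraries, with 10 of 11 called. In metastatic c-Myc-high replicates 1, 2 and 3 Tlr4 had 16.5, 25.4 and 30.2 CPM beside marker sums of 1382, 5265 and 264 CPM. In metastatic c-Myc-low replicates 1, 2 and 3 it had 40.0, 36.8 and 42.4 CPM beside 368, 1606 and 3437 CPM. The part of these markers in the Tlr4 result was not tested. The melanoma adhesion molecule gene Mcam, another calprotectin receptor, gave 3.59 (SE 1.24, adjusted p = 0.074), and Ager, which encodes the receptor RAGE, gave 2.66 (SE 1.37, adjusted p = 0.218).

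Among 7371 genes with a mean of at least 20 CPM, those whose log2(CPM + 1) followed a member most closely over the 10 libraries were found by Pearson's r. For S100b they included Fads6 (0.955) and Wdfy1 (0.947), and for S100a14 Klk7 (0.998), Lass3 (0.994) and Gdpd2 (0.993). For S100a8 they were Cpsf1 (0.939), Mcm4 (0.931) and Chkb (0.911), and for S100a4 Fam54b (0.921), Sdf2l1 (0.918) and Cotl1 (0.863). S100a8 and S100a9 correlated with each other at 0.87 by Pearson's r and at 0.382 by Spearman's rho, so the likeness lay in the 2 high libraries more than in the order of the rest. S100b and S100a1 correlated at 0.692 (Spearman 0.663). Libraries of a site share the marker differences given above, and the highest of so many coefficients are large by selection.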

How the data were processed

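RNA of sorted cells was amplified (Nugen Ovation) and sequenced on an Illumina HiSeq instrument, per the labels' protocols. The authors deposited 1 table of 92214 transcripts with estimated counts, unscaled between libraries, and RPKM, made by the authors. RPKM did not follow the count totals used here. S100b had 10 counts and 0.3405 RPKM in primary c-Myc-high replicate 2, where all genes held 1603012 counts. It had 66 counts and 2.366 RPKM in primary c-Myc-high replicate 1, where all genes held 5075407. RPKM ranges and the limma-trend fits on RPKM can thus carry differences in depth between libraries. Bowtie2, limma and mm10 stand in the submitters' processing notes; which program counted reads, and whether by strand, is not given in the sources used here. Estimated counts were summed by gene name and rounded. Genes were kept by edgeR's filterByExpr, scaled by TMM and fitted over all 4 groups with robust quasi-likelihood tests (edgeR 4.0.16, R 4.3.3), with Benjamini-Hochberg adjustment over the 16805 genes tested. Adjusted p-values come from edgeR where no other tool is named, and SE was derived from the F statistic. The common biological coefficient of variation was 0.876. The fits were checked on simulated data.

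Some genes have rows with identical values in every library, 1 such repeat each for S100a4, S100a9 and S100a16. Values of genes with 2 identical rows were whole in 8.185% of cases and midway between whole numbers in 0.989%, against 9.711% and 1.908% for genes with 1 row, within 1e-05. Such rows may each carry the full count, so the sum can double a level; folds between groups are little affected.

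Members and lists were chosen with earlier results of these data known. All members are named; from each family or partner list the called genes are named, with a few others (S100a13, Myh9, Mcam, Ager) chosen after their values were seen, and for 4 members the 3 most like genes, of which 1 is not reported here. Alternatives included DESeq2 1.42.0, limma 3.58.1 (voom, and trend on log2(RPKM + 1) or + 0.1), other scalings and filters, and leaving out each library. In the annotation used, 95.7% of deposited transcripts and all 24 member rows were found; 8 members matched the RefSeq promoter table. Intervals and floors cover counting error only.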

Additional observations from a re-analysis of the deposited data

How the results depend on the processing

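The 4 members called in the mean of both c-Myc classes became 6 with DESeq2, 2 with limma-trend on log2(RPKM + 1) and on log2(RPKM + 0.1), and 2 to 4 when single libraries were left out, with 2 without primary c-Myc-high replicate 1 or primary c-Myc-low replicate 1. Of 22 alternatives, S100a14 was called in 22, S100a16 in 20, S100a1 in 19 and S100b in 7 (log2 fold change 1.27 to 5.07, adjusted p = 0.000284 to 0.388). The 3 calls in c-Myc-high cells became 5 with DESeq2, 0 with limma-voom, 1 with the highest transcript row per gene, with limma-trend on log2(RPKM + 1), with only the 2 groups compared and without the 2 libraries richest in neutrophil transcripts, 0 without the 2 richest in salivary gland transcripts, and 1 to 3 when single libraries were left out. The 1 call in c-Myc-low cells became 2 with DESeq2, 3 with limma-voom, 2 with only the 2 groups compared, and 0 with the highest transcript row or without the 2 libraries richest in neutrophil transcripts; single libraries left it at 1. The calls over all genes changed as well. In c-Myc-high cells DESeq2 called 19.7% of all genes tested, limma-voom 0.994% and limma-trend on log2(RPKM + 1) 0.446%, against 3.97%. In c-Myc-low cells DESeq2 called 10.2%, limma-voom 23.5% and the fit of only the 2 groups compared 13.9%, against 2.11%. In the site contrast over both c-Myc classes, limma-voom lost S100b (2.32, adjusted p = 0.319) and S100a1 (5.18, adjusted p = 0.1) and gained S100a10. Between c-Myc classes, as a mean of both sites, 0 became 1 with DESeq2. The sign turned for S100a9 without the 2 neutrophil-rich libraries (-0.05 in the mean, -0.4 in c-Myc-high cells) and without metastatic c-Myc-high replicate 2 (-0.4 in c-Myc-high cells), for S100a8 in c-Myc-low cells without those 2 libraries (-0.41) or metastatic c-Myc-low replicate 3 (-0.3), for S100b in c-Myc-high cells without the 2 salivary-rich libraries (-1.5) and for S100a6 in c-Myc-high cells without primary c-Myc-high replicate 1 (0.29); with single libraries left out these ranged up to 6.19 for S100a9 and down to -2.55 for S100a6 in c-Myc-high cells and up to 4.41 for S100a8 in c-Myc-low cells. Among the values of single genes, 768 kept their direction and side of the threshold, 98 lost and 12 gained a call. Fits that leave an arm with 1 sample assume that it varies like the other groups. The cause of these changes was not tested. Leaving out these 2 pairs of libraries, counting identical rows once and scaling to total counts were chosen after seeing the data. Scaling to total counts moved the median of all genes to 0.50 from 0.28 (site, log2) and gave 1692 higher and 857 lower calls, against 1366 and 947; no member changed sign. DESeq2 called 3998 genes (23.8%) between sites and limma-trend 796 (4.74%) on log2(RPKM + 1) and 1711 (10.2%) on log2(RPKM + 0.1), against 2313 (13.8%).

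Whether replicate numbers pair the samples could not be decided from deviations from the group means. Same-numbered libraries of a site correlated in these at 0.076 in primary and at 0.092, -0.199 and -0.33 in metastatic cells. In groups of 2 the deviations mirror each other, so differently numbered primary libraries gave -0.076 by construction. Among differently numbered metastatic libraries, c-Myc-high 2 with c-Myc-low 3 gave 0.585, 3 with 1 gave 0.383 and 1 with 2 gave 0.248. The other differently numbered metastatic pairs gave -0.235, -0.513 and -0.026. The pair at 0.585 holds the 2 libraries highest in leukocyte markers. Any pairing under other numbers is a hint from the data and not from the labels. With the replicate block, 3 members were called in the mean of both c-Myc classes (S100b at 2.76, adjusted p = 0.242), and 1 member was called in c-Myc-high cells and 965 genes between sites. Groups of 2 and 3 libraries and a depth of 1603012 counts in the shallowest limit what could be called, and 0 counts of S100a1 there allow up to 2.8 CPM.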
